A study of Mus musculus with 6 samples.

Results

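The genes described here encode the nuclear-encoded subunits of respiratory complexes II to V and cytochrome c, read in mouse levator ani/bulbocavernosus muscle. They were found by gene symbol in the deposited table (Sdha to Sdhd, Uqcr genes, Cyc1, Cycs, Cox4 to Cox8 genes and Atp5 genes), which gave 50 of 27131 genes. Of these, 47 encode subunits, their tissue forms or cytochrome c. The other 3 carry matching symbols but are not subunits (Cox4nb, listed by RefSeq as Emc8, Atp5s, listed as Dmac2l, and Atp5sl, listed as Dmac2), and they are given apart. Messenger RNA was sequenced from 3 wild-type mice (WT) and 3 mice labelled 113Q, all killed at 14 weeks on standard chow. The 113Q mice carry a knock-in that models spinal and bulbar muscular atrophy (SBMA), an inherited disease of motor neurons and muscle. The sources used here give no strain, littermate status or sex. Each library comes from a separate mouse.

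The respiratory chain passes electrons from metabolic fuels to oxygen in the inner mitochondrial membrane. Complex II takes electrons from succinate, complex III passes them to cytochrome c, and complex IV (cytochrome c oxidase) hands them to oxygen, while complex V (ATP synthase) uses the proton gradient to make ATP. Complex II is built wholly from nuclear genes, whereas complexes III, IV and V also hold mitochondrially encoded subunits. Some small subunits of complex IV come in pairs, with a form that is abundant in heart and skeletal muscle and a common form made in most tissues.

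Estimated counts per library summed to between 43581087 and 73873481. Expression is given as CPM, counts relative to a library size that is scaled with TMM factors, which align libraries on the bulk of their genes. These factors follow genotype, at 0.768 to 0.794 for WT and 1.26 to 1.32 for 113Q. The 20 most abundant genes held 30.8% to 32.7% of the counts in WT and 14.1% to 15.7% in 113Q. The 13 fibre markers summed to between 164418 and 178104 CPM in WT and between 47373 and 56595 CPM in 113Q, and the fibre actin Acta1 read 32254, 42327 and 32661 CPM in the WT mice against 6464, 7642 and 10357 CPM in the 113Q mice. Of the 13 fibre markers, 10 fell and 1 rose, against 18.1% and 16.5% of all genes tested. The one that rose was the scarce Tnnt1 (log2 fold change 1.53), while Myh7 did not pass and Myl2 was not tested. Transcripts of other cells varied too. Epcam, an epithelial gene, read 0, 3.83 and 0.0385 CPM in the WT mice against 0, 8.29 and 10.2 CPM in the 113Q mice. Acta2, an actin of smooth muscle, read 46.4, 126 and 184 CPM in the WT mice against 867, 566 and 425 CPM in the 113Q mice, and the 5 endothelial markers all fell.

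Relative to other genes, nearly the whole set of respiratory subunits was lower in 113Q muscle. Among subunits the exceptions were genes of complex IV: Cox6a1, Cox7a2 and Cox8a (common forms), Cox4i2 and Cox6b2 (scarce forms) and Cox7a2l (a related factor). Of the 50 genes, 48 passed the filter on low counts, and 41 of the 48 fell (edgeR quasi-likelihood test with Benjamini-Hochberg adjustment over 16960 genes, threshold 0.05), 1 rose and 6 did not pass. Of all genes tested, 18.1% fell and 16.5% rose. The median log2 fold change of the 48 was -0.73, against 0.01 over all genes tested. For 41 of the 48 the 113Q libraries all lay below the WT libraries, and for 1 they all lay above. Over all genes tested these shares were 24.8% and 25.1%. In bulk muscle, fewer cells of a type and less RNA per cell cannot be told apart.

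These directions are relative to the other genes of the same libraries and depend on the scaling. With library totals alone in place of TMM factors, the median over all genes tested moved by 0.72 to a log2 fold change of 0.73. That of the 48 genes moved to -0.01, and 7 of them fell and 8 rose. With that scaling 4.19% of all genes fell and 64.9% rose. The gap between the 48 genes and all genes was -0.75 on the log2 scale in both. A change of scaling moves every gene by nearly the same amount, so this agreement was fixed in advance. Of the 41, 15 had a log2 fold change above 0 with library totals alone: Sdhb, Sdhc, Uqcrh, Uqcr10, Uqcr11, Cox5a, Cox5b, Cox6c, Cox8b, Atp5a1, Atp5b, Atp5d, Atp5h, Atp5s and Atp5sl. The 7 that fell in both were Uqcrc1, Cyc1, Cycs, Atp5e, Atp5g1, Atp5o and Atp5l.

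**Figure D1:**
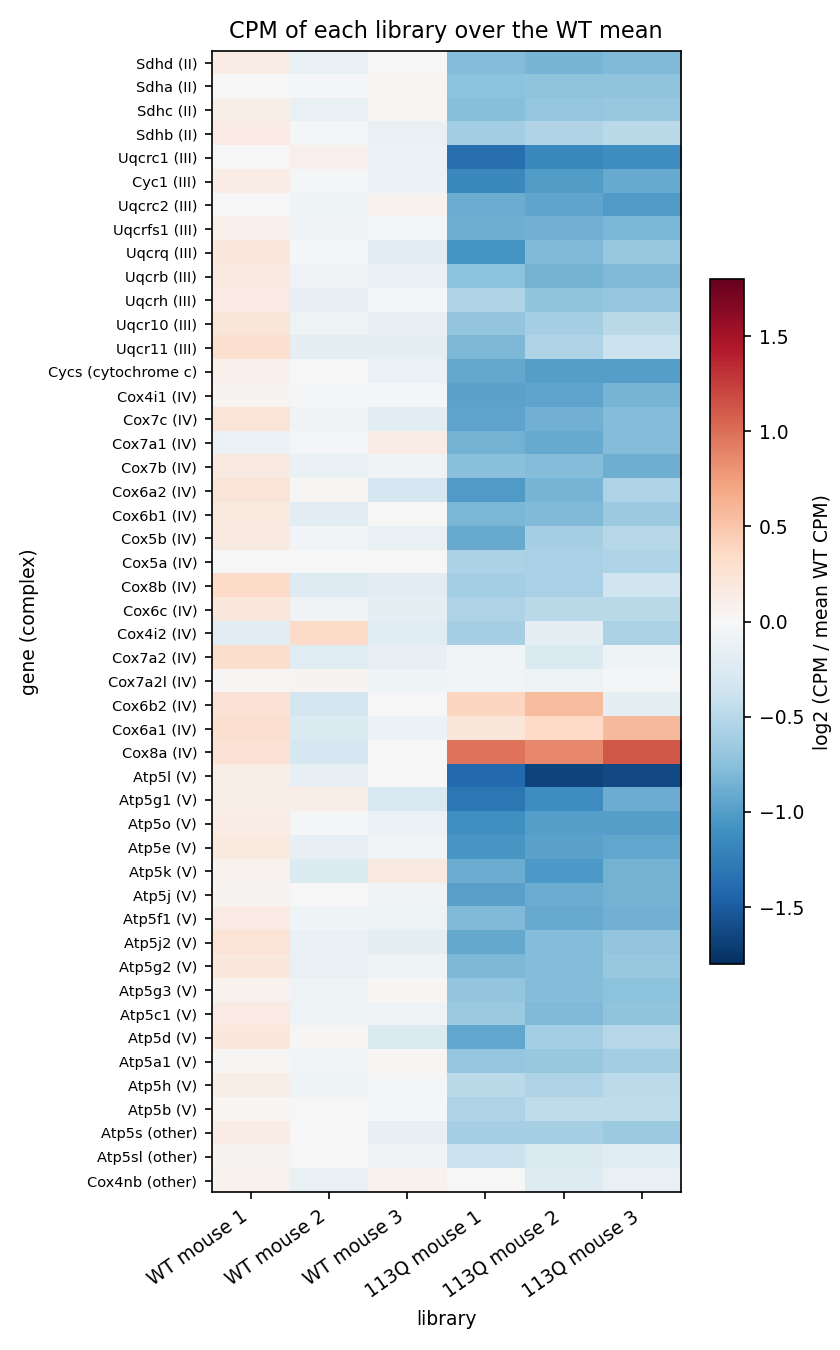
The heat map shows, for each of the 48 tested genes (rows, with its complex) and each library (columns), the log2 ratio of TMM-scaled CPM to the WT mean of that gene. On this scale the 113Q columns are blue for nearly all rows, deepest for Atp5l and Uqcrc1, and red in all 3 libraries only for Cox8a and Cox6a1.

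As a plain share of all counts, which is the scaling by library totals alone, the summed respiratory genes overlapped between groups. Such a share also depends on how much of a library its most abundant genes take. The 47 subunit genes took 2.75%, 2.48% and 2.55% of all counts of the WT mice against 2.55%, 2.51% and 2.59% of those of the 113Q mice. The 13 fibre markers, by contrast, took 13.2% ± 0.427 (SD, n = 3) of the counts in WT and 6.85% ± 0.520 (SD, n = 3) in 113Q. Set against those contractile and fibre transcripts within each library, the respiratory sum was 19.7% ± 1.62 (SD, n = 3) of the marker sum in WT and 37.4% ± 3.02 (SD, n = 3) in 113Q, a comparison added after the values were seen. Among complexes, the complex III genes with cytochrome c took 0.548%, 0.501% and 0.502% of counts in WT and 0.446%, 0.443% and 0.453% in 113Q. All 3 values in 113Q were lower than any in WT. For complexes II, IV and V the shares overlapped between groups, at 0.236% and 0.238% for complex II, 0.461% and 0.480% for complex IV, and 1.38% and 1.39% for complex V (means of WT and of 113Q).

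**Figure D2:**
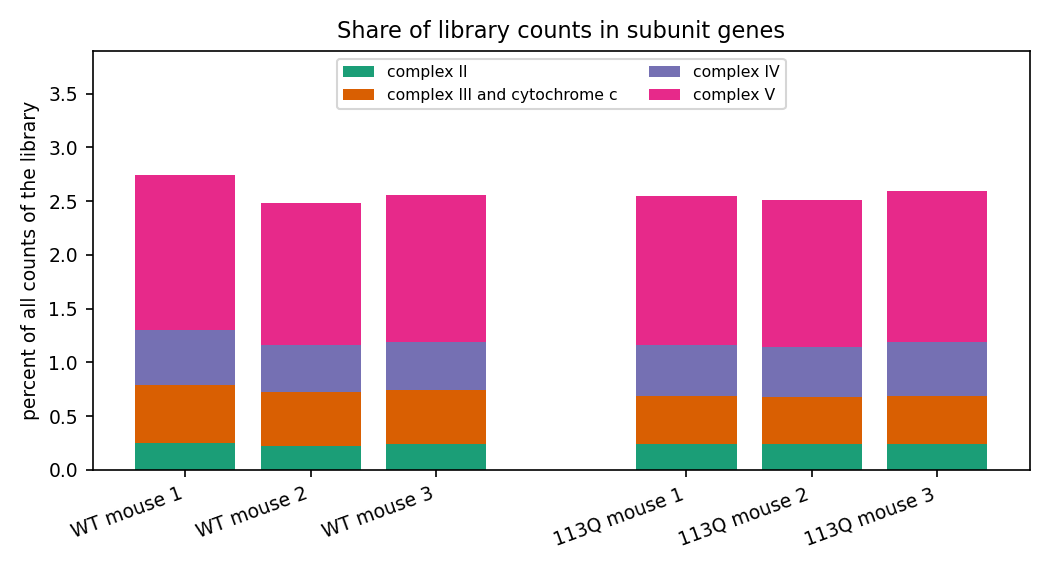
Stacked bars show the percent of all counts of each library taken by the genes of each complex. The 6 bars reach between 2.48% and 2.75%, and the segment for complex III with cytochrome c is thinner in every 113Q library than in any WT library.

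Complex II oxidises succinate and links the tricarboxylic acid cycle to the chain. All 4 of its genes fell relative to other genes, with a median log2 fold change of -0.72; with library totals alone the 4 did not pass and their log2 fold changes lay between -0.08 and 0.17. Sdha, the flavoprotein that binds succinate, was at 1616, 1578 and 1656 CPM in WT and at 968, 982 and 975 CPM in 113Q. Its 113Q values lay close together and far below WT (log2 fold change -0.73 ± 0.08 SE, edgeR adjusted p = 0.000291). The largest decrease was that of Sdhd, a membrane anchor, from 507.0 ± 47.1 to 290.7 ± 7.04 CPM (SD, n = 3 each). Sdhb, the iron-sulfur subunit, had the smallest, a log2 fold change of -0.55, and Sdhc, the other anchor, was at -0.71. The span between the 4 genes was narrower than those of complexes III, IV and V, but those complexes have more genes, and a range tends to widen with more genes. Both Sdhb and Sdhc had a log2 fold change above 0 with library totals alone (0.17 and 0.00, neither passing).

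Complex III carries electrons from ubiquinol to cytochrome c. All 9 of its genes fell, with a median log2 fold change of -0.84, and 2 of the 9 (Uqcrc1 and Cyc1) also fell with library totals alone. That share was 22.2%, against 4.19% of all genes tested with the same scaling. Uqcrc1, a core subunit, was at 1451, 1548 and 1345 CPM in WT and at 563, 649 and 666 CPM in 113Q. Every 113Q value lay far below the lowest WT value. The log2 fold change was -1.21 ± 0.10 SE (edgeR adjusted p = 9.26e-05), and it was -0.49 with library totals alone (edgeR adjusted p = 0.00133). Cyc1, the haem-bearing cytochrome c1, fell from 928.4 ± 81.8 to 459.1 ± 39.9 CPM (SD, n = 3 each). Uqcrc2, the other core subunit, and Uqcrfs1, the Rieske iron-sulfur protein, had log2 fold changes of -0.95 and -0.86. The catalytic and core genes thus lay at the lower end of the complex. The small subunits lay at the upper end, with Uqcrq at -0.84, Uqcrb at -0.80, the hinge protein Uqcrh at -0.65, Uqcr10 at -0.60 and Uqcr11 at -0.57. Uqcr11 had the widest WT spread of the complex, at 322, 233 and 232 CPM. Its call was lost without WT mouse 1 (edgeR adjusted p = 0.0517), without 113Q mouse 1 (0.0801) and without 113Q mouse 2 (0.0753). Within complex III, counts of Uqcrc1 relative to the geometric mean of the 9 genes of the same library were lower in all 113Q libraries, by 0.38 on the log2 scale, a difference that does not depend on the scaling. Cytochrome c itself (Cycs), the mobile carrier to complex IV, was at 799.5, 753 and 699 CPM in WT and at 396, 377 and 378 CPM in 113Q (log2 fold change -0.97 ± 0.09 SE, edgeR adjusted p = 0.000115).

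**Figure D3:**
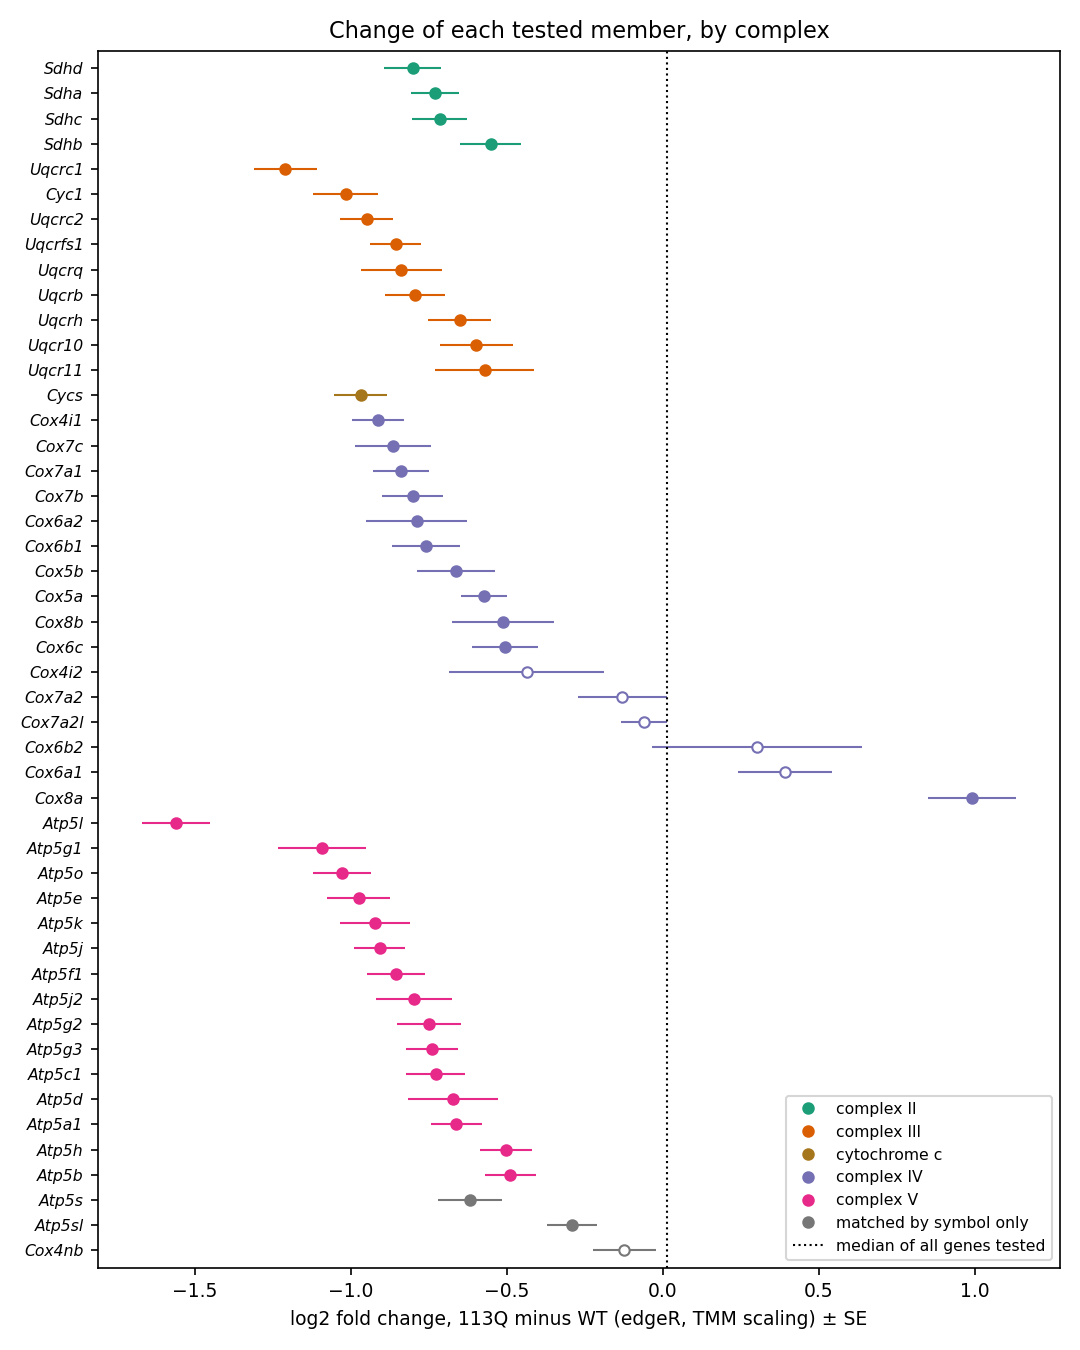
Points give the log2 fold change of each tested gene, 113Q minus WT, with its standard error, grouped and coloured by complex; filled points passed the test and open points did not. On this TMM scale all points of complexes II, III and V lie at or left of -0.49 (Atp5b), although some lie right of 0 with library totals alone, and the points at or right of the dotted line (the median of all genes tested) are those of Cox6b2, Cox6a1 and Cox8a.

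Complex IV was the mixed one. Of its 18 genes, 16 passed the filter, and of these 10 fell, 1 rose and 5 did not pass, with a median log2 fold change of -0.54. With library totals alone 5 rose (31.25%, against 64.9% of all genes tested) and 11 did not pass. Those that rose were Cox6a1, Cox6b2, Cox7a2, Cox7a2l and Cox8a. Among subunits that have only 1 form here, Cox5a was at 551, 554 and 558 CPM in WT and at 372, 370 and 376 CPM in 113Q, the tightest WT replicates of the set. Its log2 fold change was -0.57 ± 0.07 SE (edgeR adjusted p = 0.000655). Cox5b, Cox6c and Cox7c, further subunits around the catalytic core, were at -0.66, -0.51 and -0.86. Cox4i1, the common form of subunit 4 and the most abundant complex IV gene, fell from 1263 ± 35.5 to 670.6 ± 34.7 CPM (SD, n = 3 each; log2 fold change -0.91 ± 0.08 SE, edgeR adjusted p = 0.000133). Cox6b1 and Cox7b, the common forms of subunits 6B and 7B, were at -0.76 and -0.80. Not every common form stood apart, therefore: those of subunits 4, 6B and 7B fell like the rest.

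The common forms of subunits 6A, 7A and 8 behaved unlike their muscle partners. Cox8a, the common form of subunit 8 (chr19:7215153-7217616, minus strand, mm10), was at 50.2, 34.0 and 41.5 CPM in WT and at 82.3, 76.6 and 90.9 CPM in 113Q. The groups did not overlap, and it was the only gene of the 48 that rose under TMM scaling (1.99 times, log2 fold change 0.99 ± 0.14 SE, edgeR adjusted p = 0.00131). Its partner Cox8b (chr7:140898945-140900446, minus strand), the heart and muscle form, was at 456, 305 and 315 CPM in WT and at 235, 239 and 281 CPM in 113Q. Cox8b passed narrowly (log2 fold change -0.51 ± 0.16 SE, edgeR adjusted p = 0.0426). The edgeR adjusted p was 0.0671 without WT mouse 1 and above the threshold too without 113Q mouse 1 (0.132), mouse 2 (0.133) or mouse 3 (0.0568), and its log2 fold change was 0.21 with library totals alone. The call of Cox8a held in each of these fits, with log2 fold changes of 0.86 to 1.14 when 1 mouse was left out.

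Cox6a1 (chr5:115345642-115348981, minus strand), the common form of subunit 6A, was at 36.3, 25.2 and 27.8 CPM in WT and at 34.5, 38.0 and 44.4 CPM in 113Q. The groups overlapped through WT mouse 1, and the log2 fold change of 0.39 ± 0.15 SE did not pass (edgeR adjusted p = 0.0804); without WT mouse 1 it was 0.56 and passed (0.0178). Its partner Cox6a2 (chr7:128205435-128206387, minus strand, with exons that overlap Itgad on the other strand) fell from 664.9 ± 120.5 to 384.7 ± 61.5 CPM (SD, n = 3 each; log2 fold change -0.79 ± 0.16 SE, edgeR adjusted p = 0.00682). Cox7a2 (chr9:79755361-79759878, minus strand), the common form of subunit 7A, was at 226, 157 and 164 CPM in WT and at 176, 152 and 172 CPM in 113Q. These ranges overlapped, with a log2 fold change of -0.13 ± 0.14 SE (edgeR adjusted p = 0.528) that became 0.05 without WT mouse 1. Cox7a1 (chr7:30184144-30186078, plus strand), the heart and muscle form, was at 328, 347 and 388 CPM in WT and at 197, 190 and 207 CPM in 113Q, with no overlap (log2 fold change -0.84 ± 0.09 SE, edgeR adjusted p = 0.0003). Cox7a2l, a related protein that joins complexes III and IV into supercomplexes, was at 161, 163 and 150.1 CPM in WT and at 152, 149 and 154 CPM in 113Q (log2 fold change -0.06 ± 0.07 SE, edgeR adjusted p = 0.57). With library totals alone Cox6a1, Cox7a2 and Cox7a2l rose, by log2 fold changes of 1.11, 0.59 and 0.66.

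**Figure D4:**
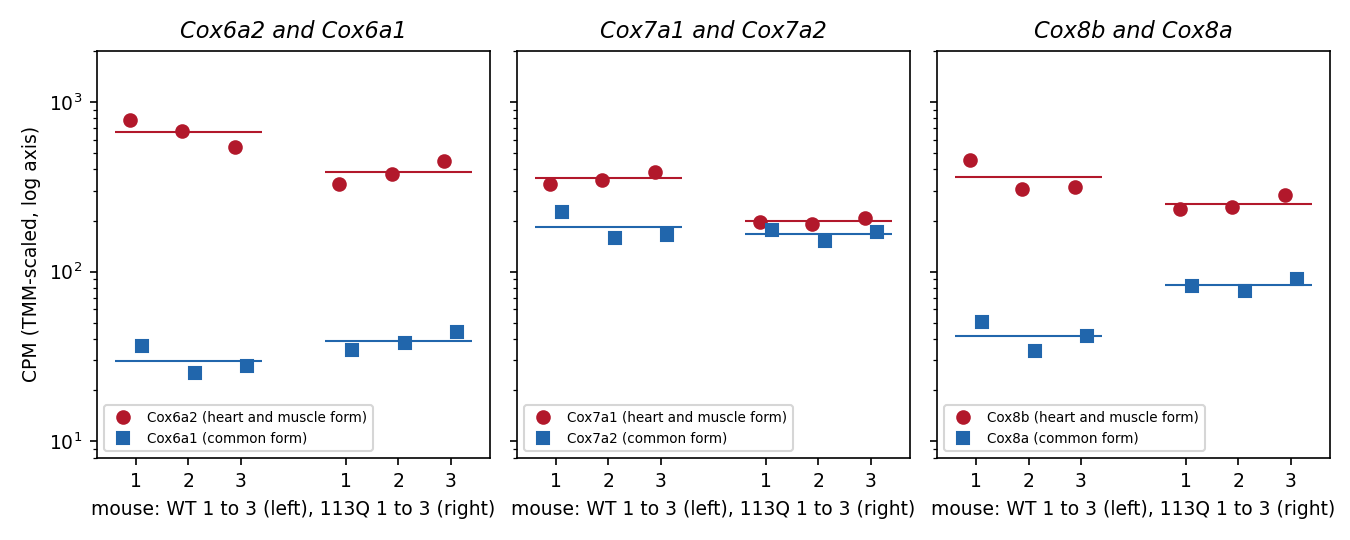
For 3 pairs of complex IV genes, points give TMM-scaled CPM (log axis) in each library, circles for the heart and muscle form and squares for the common form, with lines at the group means. On this scale the muscle forms are lower in 113Q in each panel (with library totals alone the log2 fold change of Cox8b is 0.21, which did not pass), while Cox8a is higher in every 113Q library and the Cox7a2 values overlap between groups.

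Ratios of paired genes inside a library do not depend on how libraries are scaled to each other. The Cox8b to Cox8a log2 ratio of counts was 3.18, 3.16 and 2.92 in WT against 1.51, 1.64 and 1.63 in 113Q, a ratio 2.82 times lower. For Cox6a2 over Cox6a1 it was 4.43, 4.74 and 4.28 in WT against 3.25, 3.30 and 3.34 in 113Q, 2.27 times lower. For Cox7a1 over Cox7a2 it was 0.54, 1.14 and 1.24 in WT against 0.17, 0.32 and 0.27 in 113Q, 1.65 times lower. In these 3 pairs every 113Q library lay below every WT library. The exact two-sided permutation test gave p = 0.1 for each, the smallest that 3 against 3 allows, and 0.175 after adjustment over the 7 pairs compared. As a share of the pair's counts, Cox8a was at 10.5% ± 0.958 in WT and at 24.9% ± 0.936 in 113Q (SD, n = 3 each). The share of Cox6a1 was 4.31% ± 0.641 and 9.23% ± 0.262, and that of Cox7a2 was 33.9% ± 6.04 and 45.6% ± 1.34. Per kilobase of exon, the muscle forms still led in 113Q: Cox8b was at 699 and Cox8a at 151 CPM per kb, and Cox6a2 was at 566 and Cox6a1 at 68.3 CPM per kb. Cox7a1 and Cox7a2 were at 370 and 253 CPM per kb in 113Q, against 662 and 276 in WT.

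**Figure D5:**
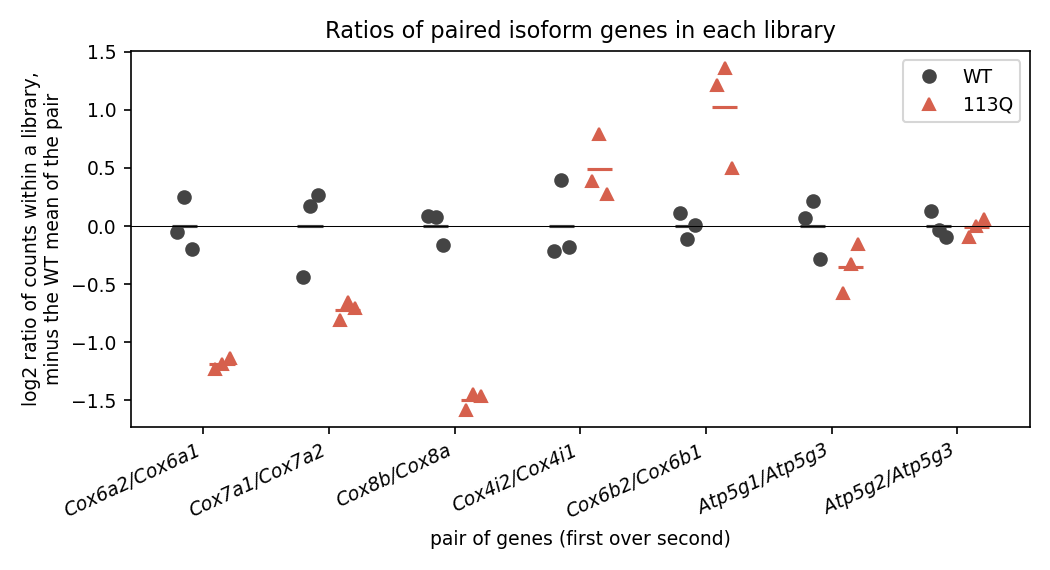
Points give the log2 ratio of counts of paired genes in each library (circles WT, triangles 113Q), less the WT mean of the pair, with short lines at group means. The 113Q points of the Cox6a2/Cox6a1, Cox7a1/Cox7a2 and Cox8b/Cox8a pairs all lie below the WT points, those of Cox6b2/Cox6b1 above, and those of the other 3 pairs overlap with WT.

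The other forms of complex IV subunits were scarce. Cox4i2, a second form of subunit 4, was at 2.16, 3.13 and 2.12 CPM in WT and at 1.63, 2.19 and 1.66 CPM in 113Q, overlapping (log2 fold change -0.44 ± 0.25 SE, edgeR adjusted p = 0.214). Its log2 ratio to Cox4i1 differed by 0.49 between groups, with overlap (exact permutation p = 0.3). Cox6b2, known as the testis form of subunit 6B, was at 0.547 to 1.03 CPM across the libraries (log2 fold change 0.30 ± 0.34 SE, edgeR adjusted p = 0.526), though its ratio to Cox6b1 was higher in all 113Q libraries (2.04 times, exact permutation p = 0.1). Cox7b2 had 0 counts in WT and 5, 2 and 2 in 113Q, and Cox8c had 0 counts in all libraries but 113Q mouse 3, which had 1. Both were under the filter, so they were not tested and gave no ratio.

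Common-form transcripts are also made by cells other than fibres, and those cells' markers moved between libraries. Cox8a was at 82.3 CPM in 113Q mouse 1, whose Epcam was at 0, and at 76.6 and 90.9 CPM in 113Q mice 2 and 3, whose Epcam was at 8.29 and 10.2 CPM. In the libraries with Epcam below 1 CPM (2 WT and 1 113Q), the log2 fold change of Cox8a was 0.84 (edgeR adjusted p = 0.00766), that of Cox6a1 0.11 (0.735) and that of Cox7a2 -0.15 (0.679). The spread in that fit comes from the 2 WT mice alone, and the lone 113Q mouse is assumed to vary as they do. Of the 5 smooth muscle markers, Acta2, Myh11, Tagln and Cnn1 were each higher in every 113Q library than in any WT library, but only Acta2 passed the test. Myh11 read 29.9, 146 and 197 CPM in the WT mice against 864, 547 and 326 CPM in the 113Q mice. Tagln ran from 43.8 to 147 CPM in WT and from 184 to 439 CPM in 113Q, and Cnn1 from 1.57 to 22.6 CPM and from 76.5 to 202 CPM. The fifth marker, Des, which fibres also express, fell, and the sum of the 5, most of it from Des, was between 6430 and 6838 CPM in WT and between 5789 and 6524 CPM in 113Q. The part of these cells in the isoform ratios was not tested. The 4 fibroblast markers summed to 380.4 to 705 CPM in WT and 615 to 763 CPM in 113Q, and the 3 macrophage markers to 18.4 to 28.1 and 22.2 to 27.5 CPM. The 5 adipocyte markers summed to 191 to 399.8 CPM in WT and 149 to 230.1 CPM in 113Q, and the 4 Schwann cell markers to 59.8 to 79.3 and 50.7 to 71.2 CPM.

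The pairs of subunits 8 and 7A also differ in the DNA before their start sites. The 4 sequences are shown because these genes give the ratios above. Each is the RefSeq window of 300 bases on GRCm38.p6, the assembly that mm10 names, from 250 bases before the start to 50 after, 5′ to 3′ on the gene's strand, with CpG dinucleotides in capitals. The windows are chr7:140900397-140900696 (minus) for Cox8b, chr19:7217567-7217866 (minus) for Cox8a, chr7:30183921-30184220 (plus) for Cox7a1 and chr9:79759804-79760103 (minus) for Cox7a2.
Cox8b: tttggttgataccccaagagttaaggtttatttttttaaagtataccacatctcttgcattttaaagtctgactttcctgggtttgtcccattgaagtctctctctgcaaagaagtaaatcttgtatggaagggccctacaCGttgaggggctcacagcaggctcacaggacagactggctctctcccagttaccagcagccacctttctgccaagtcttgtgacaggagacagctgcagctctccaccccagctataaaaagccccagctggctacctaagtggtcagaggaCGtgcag
Cox8a: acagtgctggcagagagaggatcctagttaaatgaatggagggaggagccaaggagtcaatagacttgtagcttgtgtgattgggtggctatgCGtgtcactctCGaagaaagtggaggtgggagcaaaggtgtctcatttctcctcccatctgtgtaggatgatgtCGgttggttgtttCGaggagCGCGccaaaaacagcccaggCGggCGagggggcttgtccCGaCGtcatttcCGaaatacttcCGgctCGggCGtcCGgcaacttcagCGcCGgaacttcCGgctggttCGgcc
Cox7a1: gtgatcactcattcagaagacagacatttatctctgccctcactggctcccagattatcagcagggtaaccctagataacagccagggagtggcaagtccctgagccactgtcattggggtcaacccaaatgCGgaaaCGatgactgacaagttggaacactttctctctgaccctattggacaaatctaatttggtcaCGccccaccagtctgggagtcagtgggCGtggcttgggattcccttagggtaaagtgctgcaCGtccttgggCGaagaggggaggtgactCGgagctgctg
Cox7a2: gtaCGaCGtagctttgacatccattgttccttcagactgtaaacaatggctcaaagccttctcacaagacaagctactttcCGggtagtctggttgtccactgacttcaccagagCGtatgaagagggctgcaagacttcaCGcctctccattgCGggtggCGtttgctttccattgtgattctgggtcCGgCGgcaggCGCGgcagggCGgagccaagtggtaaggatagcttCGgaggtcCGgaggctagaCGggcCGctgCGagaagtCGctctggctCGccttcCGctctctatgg

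The windows of these 2 muscle forms hold fewer CpG dinucleotides, 2 for Cox8b and 7 for Cox7a1, than those of their partners, 19 for Cox8a and 20 for Cox7a2. The median over 32851 windows of this length was 7, and another common form, Cox7b, has 5. The Cox8b window holds CAGCTG, an E-box of the kind that myogenic factors bind, at -19 and at 17, and TATAAA at 5. The Cox8a window holds CCGGAAGT, an ETS-type motif bound by GABP, at -6 and at 32, counting the start as 1 and reading both strands. The Cox7a1 and Cox7a2 windows held none of the motifs named in this paragraph, so this contrast is that of the subunit 8 pair alone. Of the 36 subunit genes with a window in the table, CAGCTG was found for 2 (5.56%; Cox8b and Atp5b), against 16.3% of all windows. TGCGCA, a half-site of the factor NRF1, was found for 8 of the 36 (22.2%, against 7.76% of all windows), CCGGAAGT for 4 (11.1%, against 3.89%), AAGGTCA, a half-site of estrogen-related receptors, for 5 (13.9%, against 4.72%), and TATAAA for 3 (8.33%, against 13.6%). A gene with several windows counted once if any held the motif, whereas the shares of all windows count each window. TGCGCA and CCGGAAGT each contain a CpG, and the windows were not matched for CpG content. A match is a description of these letters and not of binding.

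Complex V turns the proton gradient into ATP with an F1 head, a rotating c ring and a peripheral stalk that holds them together. All 15 of its genes found by symbol fell relative to other genes (median log2 fold change -0.80). With library totals alone 4 fell (Atp5e, Atp5g1, Atp5l and Atp5o), 1 rose (Atp5b) and 10 did not pass. These shares were 26.7% lower and 6.67% higher, against 4.19% and 64.9% of all genes tested. Atp5b, the catalytic beta subunit and the most abundant gene of the set, was at 5118, 5003 and 4888 CPM in WT and at 3415, 3644 and 3641 CPM in 113Q. It had the smallest decrease of the complex, a log2 fold change of -0.49 ± 0.08 SE (edgeR adjusted p = 0.00258), and 0.23 with library totals alone. Atp5a1, the alpha subunit, fell from 4082 ± 117 to 2579 ± 68.8 CPM (SD, n = 3 each). The other F1 subunits Atp5c1 (gamma), Atp5d (delta) and Atp5e (epsilon) were at -0.73, -0.67 and -0.98.

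Subunit c is encoded by 3 genes, Atp5g1, Atp5g2 and Atp5g3, whose mature proteins are identical and whose import sequences differ. Atp5g1 was at 902, 896 and 687 CPM in WT and at 338, 383 and 444.5 CPM in 113Q (log2 fold change -1.09 ± 0.14 SE, edgeR adjusted p = 0.000732). Atp5g2 and Atp5g3 were at -0.75 and -0.74. The log2 ratio of Atp5g1 to Atp5g3 was 0.35 lower in 113Q, but its values overlapped between groups (exact permutation p = 0.2), and that of Atp5g2 to Atp5g3 differed by -0.01 (exact permutation p = 1). In the peripheral stalk, Atp5o (OSCP), Atp5j (F6), Atp5f1 (b) and Atp5h (d) were at -1.03, -0.91, -0.86 and -0.50.

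Atp5l had the largest decrease of all 48 genes. It encodes subunit g, a small membrane subunit at the interface where ATP synthases pair into dimers, and lies at chr9:44912557-44920742 (minus strand). It was at 970, 810 and 903 CPM in WT and at 338, 281 and 291 CPM in 113Q, with no overlap (log2 fold change -1.56 ± 0.11 SE, edgeR adjusted p = 4.11e-05). With library totals alone its log2 fold change was -0.84 (edgeR adjusted p = 0.000286). Against the geometric mean of the 15 complex V genes in the same library, Atp5l stood at 0.22, 0.15 and 0.30 on the log2 scale in WT and at -0.30, -0.58 and -0.60 in 113Q. The gene therefore went from above to below the mean of its complex. Its neighbours in the membrane, Atp5k (subunit e) and Atp5j2 (subunit f), had log2 fold changes of -0.92 and -0.80. In the same measure Atp5b and Atp5h were higher in all 113Q libraries, by 0.35 and 0.34. So were Atp5a1, Atp5c1 and Atp5g2, by 0.18, 0.12 and 0.10. Like Atp5l, Atp5e and Atp5o were lower in all 113Q libraries (differences of -0.13 and -0.18). The mean includes Atp5l itself, so its fall raises the other genes in this measure. Exons of Atp5l overlap Gm30934 on the other strand, and the sources used here give no strand setting for the counting.

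The 3 genes found by symbol alone were scarcer. Atp5s fell from 23.1 ± 2.25 to 15.1 ± 0.469 CPM and Atp5sl from 44.5 ± 1.71 to 36.4 ± 2.21 CPM (SD, n = 3 each; edgeR adjusted p = 0.00235 and 0.0229). For Atp5sl the edgeR adjusted p passed 0.05 without WT mouse 1 (0.0645), WT mouse 2 (0.052), 113Q mouse 1 (0.0664) and 113Q mouse 2 (0.0676), and its log2 fold change was 0.43 with library totals alone. Cox4nb, whose product belongs to a membrane protein insertion complex of the endoplasmic reticulum, had a log2 fold change of -0.12 ± 0.10 SE (edgeR adjusted p = 0.383).

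Replicates of the 45 tested subunit genes were tighter in 113Q than in WT. The median coefficient of variation was 10.1% in WT and 5.04% in 113Q, and it was lower in 113Q for 37 of the 45. Spread over all genes tested was not compared, so this is not known to be particular to these genes. WT mouse 1, the library with the fewest counts (43581087), was the highest of the WT mice for 37 of the 45, by a median of 0.14 above the group mean on the log2 scale. Without that mouse, 38 of the 48 genes fell, and 2 rose (Cox8a and Cox6a1).

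Assembly factors and related genes outside the symbol rule, among them the complex IV subunit Ndufa4, moved less uniformly. Of 33 assembly factors and related genes tested, 18 fell, 3 rose and 12 did not pass (median log2 fold change -0.37); with library totals alone 1 fell and 18 rose. With TMM factors 54.5% of the 33 fell, against 18.1% of all genes, and 9.09% rose, against 16.5%. With library totals alone 54.5% rose, against 64.9% of all genes. Lrpprc, which stabilises mitochondrial messenger RNAs including those of complex IV, fell from 297.4 ± 31.7 to 142.4 ± 2.38 CPM (SD, n = 3 each; log2 fold change -1.06 ± 0.09 SE, edgeR adjusted p = 0.000119). Ndufa4, named for complex I but a subunit of complex IV, had a log2 fold change of -0.95. That of Cox10, which takes part in making the haem of complex IV, was -0.68. The gene that rose most was Atpif1, the inhibitor that stops complex V from splitting ATP, from 18.8 ± 1.29 to 28.1 ± 0.740 CPM (SD, n = 3 each; log2 fold change 0.58 ± 0.09 SE, edgeR adjusted p = 0.00167). Atpif1 thus rose while the 15 complex V genes fell, and with library totals alone its log2 fold change was 1.30. Cox19 and Ccdc56, both needed to assemble complex IV, rose by 0.44 and 0.27 on the log2 scale (edgeR adjusted p = 0.0213 and 0.0264). Their calls were lost without WT mouse 2 (edgeR adjusted p = 0.0578 and 0.0593), WT mouse 3 (0.0722 and 0.0873) or 113Q mouse 3 (0.0745 and 0.0922).

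Other mitochondrial genes give the setting. Of 37 complex I subunit genes, 35 fell and 2 did not pass (median log2 fold change -0.80), and of 76 mitochondrial ribosomal protein genes, 48 fell and 28 did not pass (median log2 fold change -0.43; 4 fell and 43 rose with library totals alone). With TMM factors 94.6% of the complex I genes and 63.2% of the ribosomal protein genes fell, against 18.1% of all genes. Of the ribosomal protein genes 56.6% rose with library totals alone, against 64.9% of all genes. For complex I the count with library totals alone was 7 lower and 3 higher (18.9% and 8.11%, against 4.19% and 64.9% of all genes). The difference between these lists and the genes of complexes II to V was not tested.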

How the data were processed

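Messenger RNA from the muscle of 3 WT and 3 113Q mice was read on an Illumina platform. The values are estimated counts per gene that the authors deposited (5.38% to 5.96% of a library's values are not whole numbers). Per the submitters' processing notes, build mm10 was used with Bowtie2 2.1.0 and TopHat2 2.0.9, and Cuffdiff 2.1.1, Cufflinks, cutadapt and FastQC 0.10.0 are also listed. The sources used here do not give the counting step, its strand setting or its annotation, so reads of overlapping genes on opposite strands may not have been kept apart.

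Counts were rounded and genes filtered with edgeR's filterByExpr (minimum count 10). 113Q was compared with WT in edgeR 4.0.16 (R 4.3.3) by the robust quasi-likelihood test with TMM factors and Benjamini-Hochberg adjustment over all genes tested (threshold 0.05). The standard error is the log2 fold change divided by the root of the F statistic. The code was tested on simulated data. Ratios of paired genes add 0.5 to each count and were compared by exact permutation of the mice. Positions and exon lengths come from GENCODE M21, which matched 49 of the 50 genes, and promoter windows from RefSeq, with 36 of the 47 subunit genes matched.

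Genes named by rule were the paired forms, the 2 lowest and 2 highest fold changes and the 2 most abundant genes of each complex, every gene that rose or did not pass, and the 3 assembly genes with the smallest p in each direction. Some of these are given by log2 fold change alone. Other genes given by name, among them Cox5a and Cycs, were chosen after their values were seen. The genes and lists were chosen with earlier results of these data known. Alternatives tried were DESeq2 1.42.0, limma 3.58.1 (voom), other scalings, filters and thresholds, unrounded values, a fit without robust estimation, a replicate block, Epcam-based fits and leaving out each mouse. A check of the targeted gene is not reported here.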

Additional observations from a re-analysis of the deposited data

How the results depend on the processing

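Scaling was the choice that mattered most. With library totals alone 7 of the 48 genes fell and 8 rose, 1 assembly gene fell and 18 rose, and the median log2 fold changes were -0.0029 for complex II, -0.13 for complex III with cytochrome c, 0.18 for complex IV and -0.079 for complex V. The log2 fold change turned positive there for Atp5a1 (0.057), Atp5b (0.23), Atp5d (0.046), Atp5h (0.22), Atp5s (0.10), Atp5sl (0.43), Cox4i2 (0.28), Cox4nb (0.60), Cox5a (0.15), Cox5b (0.055), Cox6c (0.21), Cox7a2 (0.59), Cox7a2l (0.66), Cox8b (0.21), Sdhb (0.17), Sdhc (0.0045), Uqcr10 (0.12), Uqcr11 (0.15) and Uqcrh (0.070). It did so for 21 of the 33 assembly genes, among those named only for Cox10 (0.041). Leaving out 1 mouse moved Cox7a2 between -0.23 and 0.053 (the latter without WT mouse 1). With voom and with upper-quartile factors 2 genes rose (Cox6a1 and Cox8a). Leaving out 1 mouse gave 38 to 41 genes lower, 1 to 2 higher, 15 to 18 assembly genes lower, 1 to 3 higher, and a complex V median of -0.85 to -0.71. Assembly genes higher numbered 1 at a threshold of 0.01. With only the libraries with Epcam below 1 CPM, 0 assembly genes were higher in edgeR (1 at an unadjusted p under 0.05), 37 of the 48 genes fell (Atp5s, Atp5sl, Cox6c and Cox8b were lost, with 1 mouse left in 113Q) and the complex V median was -0.92. With the replicate block 38 genes fell (Atp5sl, Cox8b and Uqcr11 were lost) and 1 assembly gene rose. The sources used here do not say whether the mouse numbers pair the samples. Deviations of same-numbered mice correlated at 0.20, 0.24 and -0.27, and those of other numbers at -0.44 to 0.38. With 3 mice per group these values can neither show nor exclude a pairing. For isoform ratios a block of 1 mouse per group cannot move the difference; the SD of the differences within numbers was 0.188 for Cox8b over Cox8a and 0.250 for Cox6a2 over Cox6a1, beside SDs within groups of 0.114 and 0.166. The cause of these changes was not tested. Depths of 43581087 to 73873481 counts per library left Cox7b2 and Cox8c untested, and they limit the scarce Cox4i2 and Cox6b2.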
